A study of Mus musculus with 3 samples.

Results

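Ribosomal protein genes were followed in single-cell transcriptomes of mouse bone marrow. They were chosen by symbol: Rpl or Rps followed by a digit, plus Rplp0, Rplp1, Rplp2 and Rpsa. Symbols containing -ps (9 gene rows) and the S6 kinase genes that share the letters (10 gene rows) were left out. This gave 86 of the 31053 genes in the tables. Of these, 77 encode structural proteins of the cytoplasmic ribosome, 46 in the large and 31 in the small subunit. The other 9 are the paralogs Rpl3l, Rpl7l1, Rpl10l, Rpl22l1, Rpl36al, Rpl39l, Rps27l and Rps27rt, and Rps19bp1, which encodes a protein that binds Rps19 and is not itself a ribosomal protein. All 86 had at least 1 UMI (unique molecular identifier, a counted transcript molecule) in the cells analysed.

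Marrow came from C57BL/6 mice and was enriched for cells bearing the receptor cKit, and the 3 libraries were made with the 10x Genomics 3' kit, version 2. One library was from steady state (unchallenged), 1 from mice given Escherichia coli 1 time (challenged once, labelled 24 h) and 1 from mice given it 2 times (labelled 48 h and called rechallenged here). With 1 library per group there was no test across samples. The number of challenges, the labelled hours and anything particular to a library cannot be told apart, and intervals cover counting error only. The series' design text speaks of 2 samples and another treatment, and the sample labels were followed. The labels do not state from what moment the hours count or whether animals were pooled. The series is titled for infection, stem and progenitor cells and neutrophil defence.

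Each ribosome is built from a small subunit, which reads the messenger RNA, and a large subunit, which joins amino acids. Their proteins are needed in near equal numbers, and their messenger RNAs are among the most abundant in dividing cells. Most of these messengers begin with a 5' terminal oligopyrimidine tract, a C followed by a run of C and T, through which nutrient and growth signals adjust their translation. In marrow, loss of 1 copy of genes such as Rps19, Rps14, Rpl5 or Rpl11 is a known cause of failed red cell production, and neutrophils cut back ribosome production as they mature.

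The 3 tables held 9684, 9060 and 8923 barcodes and 119646078, 135079828 and 95522747 UMIs in the order unchallenged, challenged once and rechallenged. After filtering, 8796, 8356 and 8286 cells remained, with a median of 10969, 13004 and 10247.5 UMIs and a median mitochondrial share of 2.07%, 2.58% and 4.10%. Between 103 and 125 barcodes were shared by any pair of libraries and 0 by all of them. Although the source label names neutrophils, cells named immature or mature neutrophil-like made up 44.9%, 18.3% and 26.2% of the kept cells, and the rest spread over progenitors and other lineages. The mRNA of Kit was at 104, 69.1 and 126 CPM (UMIs per 1000000 UMIs of the group) in HSPC-like cells (hematopoietic stem and progenitor cells) and at 10.6, 9.58 and 6.16 CPM in immature neutrophil-like cells.

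The start of a ribosomal protein transcript is shown for 9 members on which the results below turn, 15 bases before and 15 from the annotated start, from RefSeq on GRCm38.p6. Capitals mark the unbroken run of C and T that begins with a C at the annotated start. Rpl38, Rps21, Rpl35 and Rps27 were among the members that stood highest in the rechallenged against the challenged once library, as was Rps28 (shown for that reason after its values were seen), Rpl4 and Rpl7l1 were among the lowest, Rplp0 is the base of the stalk, and Rps27rt is the retrogene copy of Rps27.
Rpl38, chr11:114668565-114668594, plus strand: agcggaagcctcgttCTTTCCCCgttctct
Rps21, chr2:180257364-180257393, plus strand: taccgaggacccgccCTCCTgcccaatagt
Rpl35, chr2:39005117-39005146, minus strand: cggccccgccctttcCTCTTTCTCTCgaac
Rps27, chr3:90213634-90213663, minus strand: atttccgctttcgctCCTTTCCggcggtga
Rps27rt, chr9:114982725-114982754, minus strand: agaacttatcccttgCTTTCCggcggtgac
Rps28, chr17:33824548-33824577, minus strand: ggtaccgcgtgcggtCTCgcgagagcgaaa
Rplp0, chr5:115559452-115559481, plus strand: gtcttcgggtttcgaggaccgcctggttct
Rpl4, chr9:64173372-64173401, plus strand: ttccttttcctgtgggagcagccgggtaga
Rpl7l1, chr17:46782642-46782671, minus strand: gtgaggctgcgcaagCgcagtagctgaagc
The capital run was 8 bases in Rpl38, 5 in Rps21, 11 in Rpl35, 7 in Rps27 and 6 in Rps27rt, 3 in Rps28, 1 in Rpl7l1 and 0 in Rpl4 and Rplp0. These lengths depend on the annotated start. For Rpl4 another annotation, GENCODE M21, starts the gene at 64173375, inside the letters shown. There a C opens an unbroken run of C and T, so the 0 does not mean that Rpl4 lacks a tract. High members thus included one with a short run, Rps28, which had 6173, 4689 and 8947 CPM in HSPC-like cells. A C followed by at least 4 bases of C or T on the transcribed strand stood at the annotated start of 14 of 66 members with a RefSeq window (21.2%) and of 546 of 19341 other genes (2.82%). Allowing the run to start up to 10 bases on either side gave 60.6% and 35.1%. A match is a description of these letters only.

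Members took up a large part of all UMIs, and how much depended first on the cell group. Over all kept cells the share was 26.7% in the unchallenged library, 34.6% in the challenged once library and 37.5% in the rechallenged library. In the unchallenged library megakaryocyte-like cells (41.19%), HSPC-like cells (41.17%) and dendritic cell-like cells (40.5%) were highest, and their 95% intervals of 41.15 to 41.23% and 41.13 to 41.21% overlapped for the first and second. Erythroid-like cells (39.6%), basophil or mast-like cells (38.5%), monocyte-like cells (38.2%) and neutrophil progenitor-like cells (35.9%) followed. Lower shares were seen in T, NK or innate lymphoid-like cells (35.1%), B lineage-like cells (26.9%) and macrophage-like cells (17.5%). Macrophage-like cells were shallow, with a median of 789 UMIs, and the share of the median cell was 24.1%, above the pooled 17.5%. Immature neutrophil-like cells, the stage of specific granule genes, had 8.91%, and mature neutrophil-like cells had 6.11%. The order from HSPC-like through neutrophil progenitor-like and immature to mature neutrophil-like cells was downward in all 3 libraries.

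In molecules per cell the lineage peaked at the neutrophil progenitor-like stage and was lower after it. In the unchallenged library the median cell held 3658 member UMIs among HSPC-like cells, 6810 among neutrophil progenitor-like cells, 734 among immature and 251 among mature neutrophil-like cells. The UMIs of all other genes in the median cell were 4955, 12021, 10118 and 3966 in the same order. Immature neutrophil-like cells thus held nearly as many other UMIs as neutrophil progenitor-like cells and far fewer member UMIs. Genes of the specific granule list took 1.36%, 3.99%, 49.3% and 49.8% of the UMIs of these groups.

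**Figure D1:**
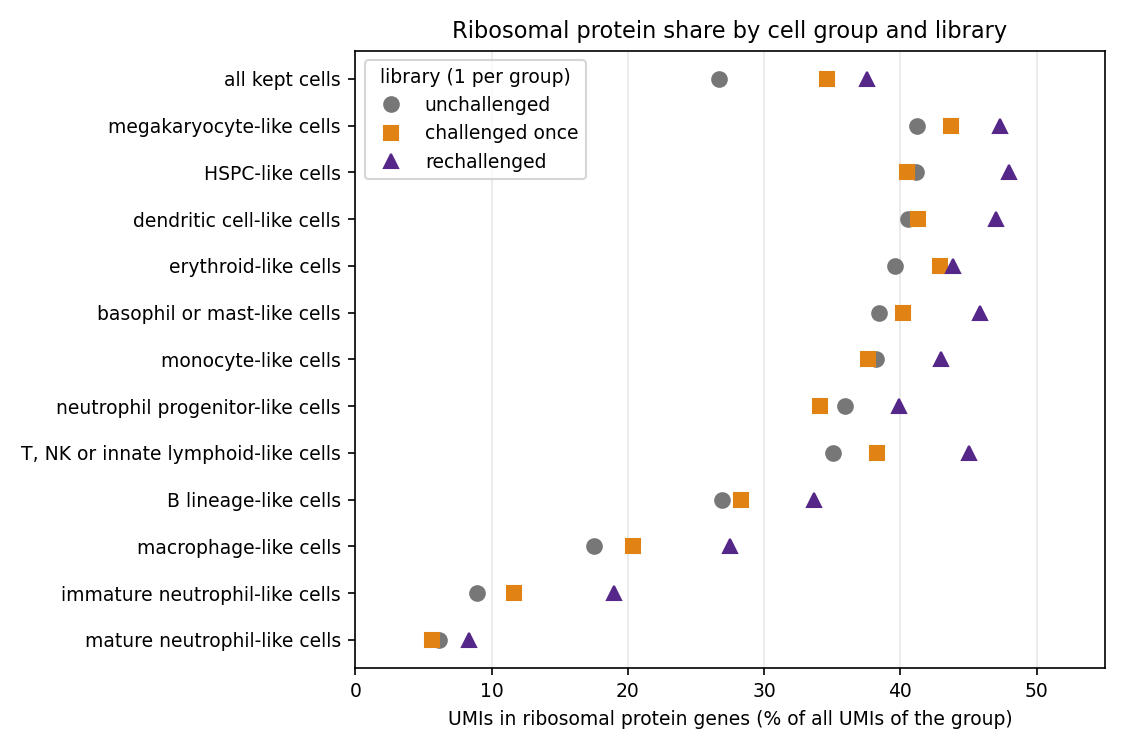
Share of UMIs in the 86 ribosomal protein genes (x axis, percent of all UMIs of the group) by cell group (y axis) for the 3 libraries, 1 point per library. The rechallenged library lies to the right of the other libraries in all 12 named cell groups, and the neutrophil-like groups lie far to the left of the progenitor groups.

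Comparing the challenged once with the unchallenged library, the share over all kept cells was 1.30-fold higher, while the share within most cell groups differed little. In HSPC-like cells it was 40.5% against 41.2%, a log2 ratio of -0.024, and in neutrophil progenitor-like cells 34.1% against 35.9%, a log2 ratio of -0.076. Of the 12 named cell groups 8 were higher and 4 lower, with log2 ratios from -0.12 in mature to 0.39 in immature neutrophil-like cells. Macrophage-like cells, among the 8, were lower by the median cell, at 23.7% against 24.1%. Immature and mature neutrophil-like cells, the groups with the lowest shares, held 37.5% of the UMIs in the unchallenged and 10.1% in the challenged once library. Over the cells outside those groups the share was 37.4% and 37.2%. The sign in HSPC-like cells was turned by other clusterings, to 0.017 with a stricter cell filter and 0.013 at a finer Leiden resolution.

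Against the unchallenged library, the rechallenged library had a higher member share in 12 of 12 named cell groups, with log2 ratios from 0.15 to 1.09 and a median of 0.24. One of these, mature neutrophil-like cells at 0.44, was turned to -0.61 by clustering on all variable genes. In HSPC-like cells the share was 47.9% against 41.2%, in neutrophil progenitor-like cells 39.9% against 35.9%, and in dendritic cell-like cells 47.0% against 40.5%. The last group is 1 cluster whose leading genes hold 2 of its own markers, Siglech and Cox6a2, beside Flt3, a marker on the HSPC list, and the lymphoid genes Ly6d and Dntt. In T, NK or innate lymphoid-like cells, 344 cells in the rechallenged and 36 in the unchallenged library, it was 45.0% against 35.1%. The widest gap was in immature neutrophil-like cells, at 19.0% against 8.91%, a 2.13-fold difference.

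Single cells moved with their group. The quartiles of the share per HSPC-like cell were 39.0 and 43.7% in the unchallenged, 38.8 and 43.3% in the challenged once and 46.0 and 50.7% in the rechallenged library, so the middle of the third distribution lay above that of the others. HSPC-like cells were 1 cluster of 611, 968 and 672 cells. After thinning every cell to 2000 UMIs, with 5, 9 and 7 shallower cells left out, their shares were 41.2%, 41.0% and 48.3%. Thinning keeps the expected share of each cell and gives cells equal weight, so it cannot show an effect of depth. Within the libraries the rank correlation of depth and member share over HSPC-like cells was 0.041, -0.35 and -0.22, and the part of depth was not tested. The mitochondrial share of HSPC-like cells was also highest in the rechallenged library, at 3.09%, 3.04% and 4.68%. Over the cells within each library its rank correlation with the member share was 0.012, -0.038 and -0.11. The part of the mitochondrial share in the result was not tested. With mitochondrial genes left out of the total the log2 ratio of rechallenged over unchallenged was 0.24, and 0.22 with them. The median depth was highest in the challenged once library, at 8645, 14008.5 and 9673 UMIs, and the granule list, which these cells should hardly express, was highest in the unchallenged library, at 1.36%, 0.215% and 0.243%.

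The rechallenged library was also above the challenged once library in 12 of 12 named groups, with log2 ratios from 0.032 in erythroid-like to 0.70 in immature neutrophil-like cells and a median of 0.23. The shares set side by side were 47.9% and 40.5% in HSPC-like cells and 39.9% and 34.1% in neutrophil progenitor-like cells. Erythroid-like cells, at 43.9% and 42.9%, were close, and without a filter on cells the sign there was turned, to -0.049. These comparisons share the rechallenged library and are not independent of each other.

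In HSPC-like cells the higher share in the rechallenged library lay in the members with short coding sequences. Split at 450 bases of coding sequence, near the median of 453, 42 members were shorter and 44 longer. In HSPC-like cells the shorter members took 21.1% of all UMIs in the unchallenged, 20.1% in the challenged once and 28.0% in the rechallenged library. The longer members took 20.03%, 20.4% and 19.9%. The shorter members were thus highest in the rechallenged library, while the longer ones lay close together. Over all kept cells both kinds were higher than in the unchallenged library, at 22.02% against 13.7% for the shorter and 15.5% against 12.9% for the longer. This split, like the rest of the description by length, was chosen after the values were seen.

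In each of the 12 named cell groups the shorter members had the larger log2 ratio, but the longer members did not stay level in all of them. Over unchallenged, the rechallenged library had a higher share of the shorter members in 12 of 12 groups, with log2 ratios from 0.31 to 1.26 and a median of 0.44. The share of the longer members was higher in 6 groups and lower in 6, from -0.14 in erythroid-like cells to 0.88 in immature neutrophil-like cells, with 0.25 in macrophage-like, 0.23 in mature neutrophil-like and 0.12 in T, NK or innate lymphoid-like cells. Over challenged once, the shorter members were higher in the rechallenged library in 12 of 12 groups, with a median log2 ratio of 0.47, and the longer members higher in 3 and lower in 9, with a median of -0.079. In neutrophil progenitor-like cells the shorter members took 18.9%, 17.4% and 23.4% and the longer members 17.0%, 16.7% and 16.5%. In immature neutrophil-like cells both kinds were higher in the rechallenged library, at 11.2% against 4.68% for the shorter and 7.75% against 4.23% for the longer.

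**Figure D2:**
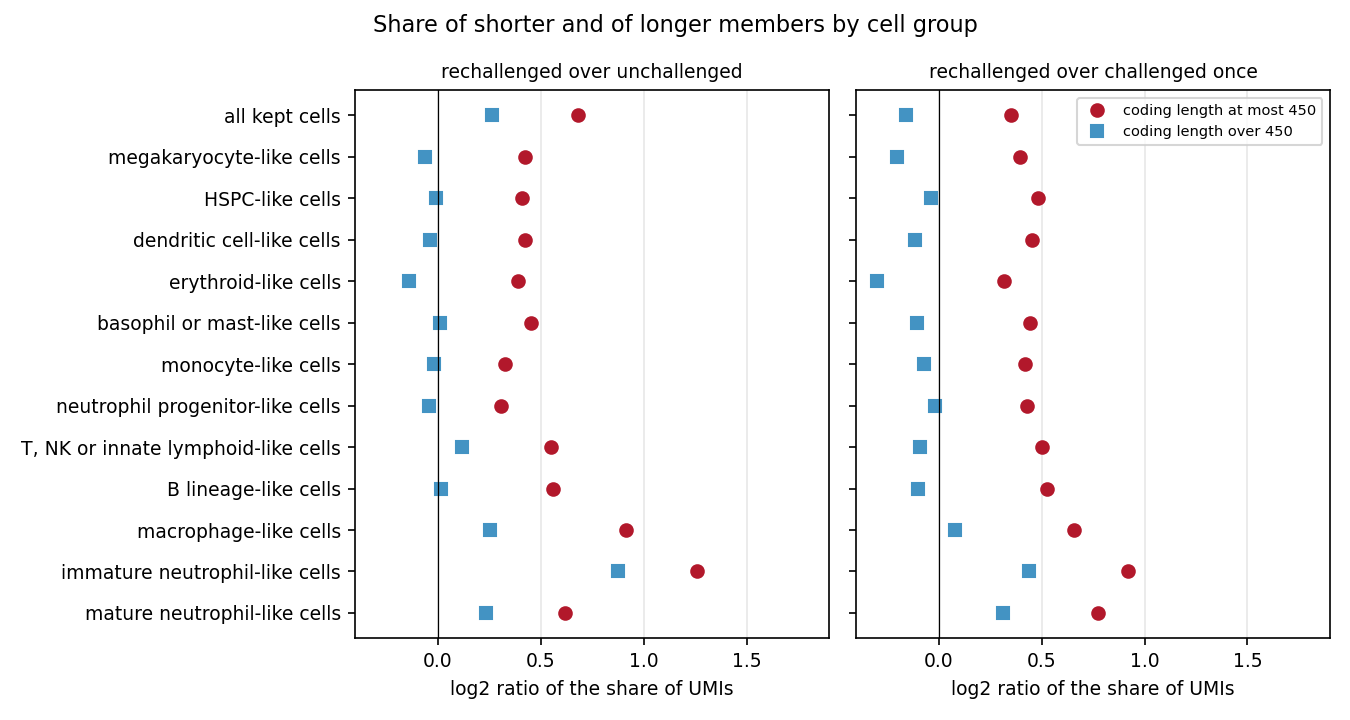
Log2 ratio of the share of UMIs (x axis) for members with coding sequences of at most 450 bases (circles) and over 450 bases (squares), by cell group (y axis), for rechallenged over unchallenged (left) and over challenged once (right). All circles lie to the right of 0 and of the squares of the same group, and most squares lie near or left of 0.

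Gene by gene, the log2 ratio followed coding length. It was taken on CPM plus 10 among members whose UMIs in the 2 libraries compared summed to at least 100, which were 83 in HSPC-like cells. Its rank correlation with coding length for rechallenged over unchallenged was -0.67 over these 83 genes, which share libraries and depth, and over 12 named groups it ran from -0.81 to -0.47. Between challenged once and unchallenged it was 0.31 in HSPC-like cells, and 10 of 12 groups were positive. For rechallenged over unchallenged in HSPC-like cells the same correlation was 0.29 over all 7786 other measured genes, the opposite sign, and -0.15 over the 950 of them at 100 CPM or more. Of these abundant genes, the 108 with coding sequences up to 300 bases had a median log2 ratio of 0.058, against -0.42 for 233 with over 750 and up to 1300 bases, while the 11 members in the first range had 0.47 and the 12 in the second -0.11.

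**Figure D3:**
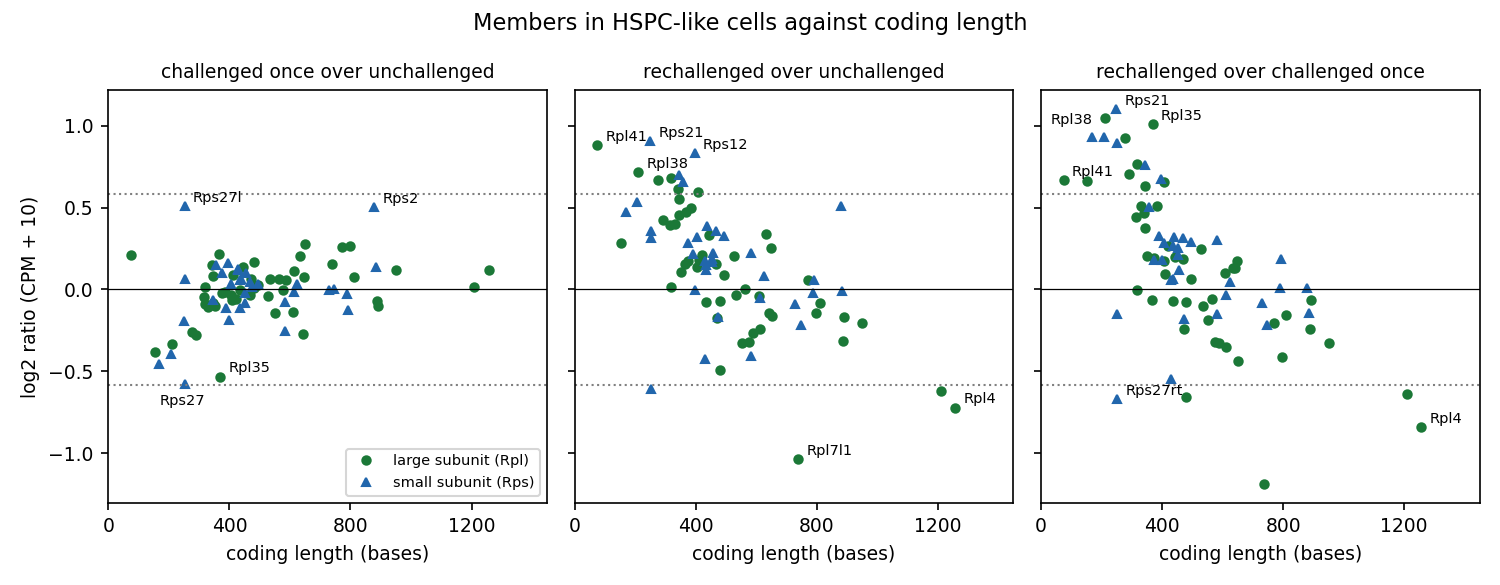
Log2 ratio (y axis, CPM plus 10) against coding length in bases (x axis) for the 83 measured members in HSPC-like cells, one panel for each pair of libraries; circles are large subunit (Rpl) and triangles small subunit (Rps) genes, and dotted lines mark 1.5-fold. In the middle and right panels points fall from upper left to lower right, and in the left panel none passes 1.5-fold.

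A difference of at least 1.5-fold on CPM plus 10 is called here, while folds given with their intervals are ratios of CPM without the added 10. In HSPC-like cells it was reached for challenged once over unchallenged by 0 of 83 members in either direction, where 0.655% of all measured genes were higher and 1.26% lower. Between the rechallenged and the unchallenged library 10 members were higher and 4 lower, where 1.78% of all measured genes were higher and 9.8% lower. Set against challenged once, the rechallenged library had 15 higher and 5 lower, where 1.77% were higher and 10.4% lower. Against either library, the part of the members that was lower in the rechallenged library was under that of all genes. The median log2 ratio of the members was 0.0073, 0.15 and 0.13 in these comparisons, against -0.0096, -0.15 and -0.12 for all measured genes. With the ratios centred on the median gene, 17 members were higher and 1 lower for rechallenged over unchallenged. Centring raised the ratio of every gene by the same amount. The shares of all genes given above are without centring and cannot be set beside these counts.

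Among large subunit members, Rpl41, the smallest ribosomal protein, with a coding sequence of 75 bases, had 8762 CPM in HSPC-like cells when unchallenged, 10155 CPM after 1 challenge and 16168 CPM when rechallenged. It was highest in the rechallenged library, 1.85-fold (1.83 to 1.86) above unchallenged. Rpl38, known from mice in which its loss disturbs skeletal patterning, had 4125, 3276 and 6788 CPM. Its level was lowest after 1 challenge and highest after 2, with a fold of 2.07 (2.05 to 2.10) between those libraries. Rpl35, which lies near the exit tunnel for new proteins, had 4317, 2983 and 6006 CPM, a fold of 0.691 for challenged once over unchallenged and of 2.01 for rechallenged over challenged once. Rpl32, one of the 5 members with the most UMIs, had 9725, 9479 and 10692 CPM and stayed within 1.13-fold between any pair of libraries.

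Several longer members of the large subunit were lower in the rechallenged library. Rpl4, which reaches into the exit tunnel and has a coding sequence of 1257 bases, had 3387, 3684 and 2050 CPM in HSPC-like cells. That is 0.605-fold (0.593 to 0.618) of unchallenged. Rpl3, which lies close to the site of peptide bond formation, had 4283, 4332 and 2777 CPM, or 0.648-fold. Rpl29 had 2846, 3199 and 2021 CPM. Rpl14 had 4446, 5385 and 3969 CPM and was among the 3 highest ratios for challenged once over unchallenged, at 0.28 on the log2 scale. In these 4 genes the rechallenged library was the lowest. The retrogene Rps27rt, short like its parent, was among the 4 lower members, beside Rpl4, Rpl3 and Rpl7l1. Its annotated transcript has a run of 341 bases in common with that of Rps27. Reads of these genes can hardly be told apart, so Rps27rt is not a clear exception to the pattern by length.

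Rpl5 and Rpl11, which with 5S ribosomal RNA can bind the p53 inhibitor Mdm2, had 2432, 2265 and 2163 CPM and 4281, 4471 and 4174 CPM in HSPC-like cells. Rpl10, which joins the large subunit late and is needed for subunits to join, had 5511, 4557 and 4987 CPM. These 3 genes stayed within 1.5-fold in HSPC-like cells. The proteins of the stalk that recruits translation factors differed among themselves. Rplp0, the base of the stalk, had 4475, 4860 and 3877 CPM and was lowest in the rechallenged library. Rplp1 had 7763, 8611 and 11895 CPM and Rplp2 had 6538, 6179 and 9587 CPM, and both were highest there, Rplp1 1.53-fold and Rplp2 1.47-fold above unchallenged. The coding sequence of Rplp0 is 951 bases long, at the long end of the members.

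Small subunit members showed the same spread. Rps21 had 3281, 2868 and 6163 CPM in HSPC-like cells, 1.88-fold (1.85 to 1.91) above unchallenged and 2.15-fold above challenged once in the rechallenged library, the highest log2 ratios among measured members (0.91 and 1.10). Rps12 had 6344, 7086 and 11317 CPM and was 1.78-fold above unchallenged. Rps29, a small zinc-binding protein, had 10086, 7355 and 14012 CPM, and Rps27, a zinc finger protein, had 6604, 4414 and 8223 CPM. Both were lowest in the challenged once library, at 0.729-fold and 0.668-fold of unchallenged. With Rpl35 they were the 3 members with the lowest ratios for challenged once over unchallenged in HSPC-like cells.

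Rps2, at the messenger RNA entry side of the small subunit, departed from the pattern by length. Its coding sequence of 879 bases is long, yet its level was 3816 CPM in the unchallenged, 5414 CPM in the challenged once and 5437 CPM in the rechallenged library. Both challenged libraries lay about 1.42-fold above the unchallenged one. Of its last 300 transcript bases, 87.8% of 31-base words occur in other genes too, and its value is uncertain where the authors' counting split or dropped such reads. This limit is not particular to Rps2. Among members named here the figure ran from 0% in Rplp0 and 1.48% in Rpl4 to 96.7% in Rpl35 and 100% in Rps12, Rps27 and Rpl36a. Counting intervals do not cover it. Rps6, the substrate of S6 kinases, had 5833, 5838 and 5024 CPM. Rps14 had 6888, 6503 and 7736 CPM, Rps19 had 8995, 9360 and 9780 CPM, and Rpsa, also known as a laminin receptor, had 4551, 4997 and 4526 CPM, all within 1.5-fold.

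**Figure D4:**
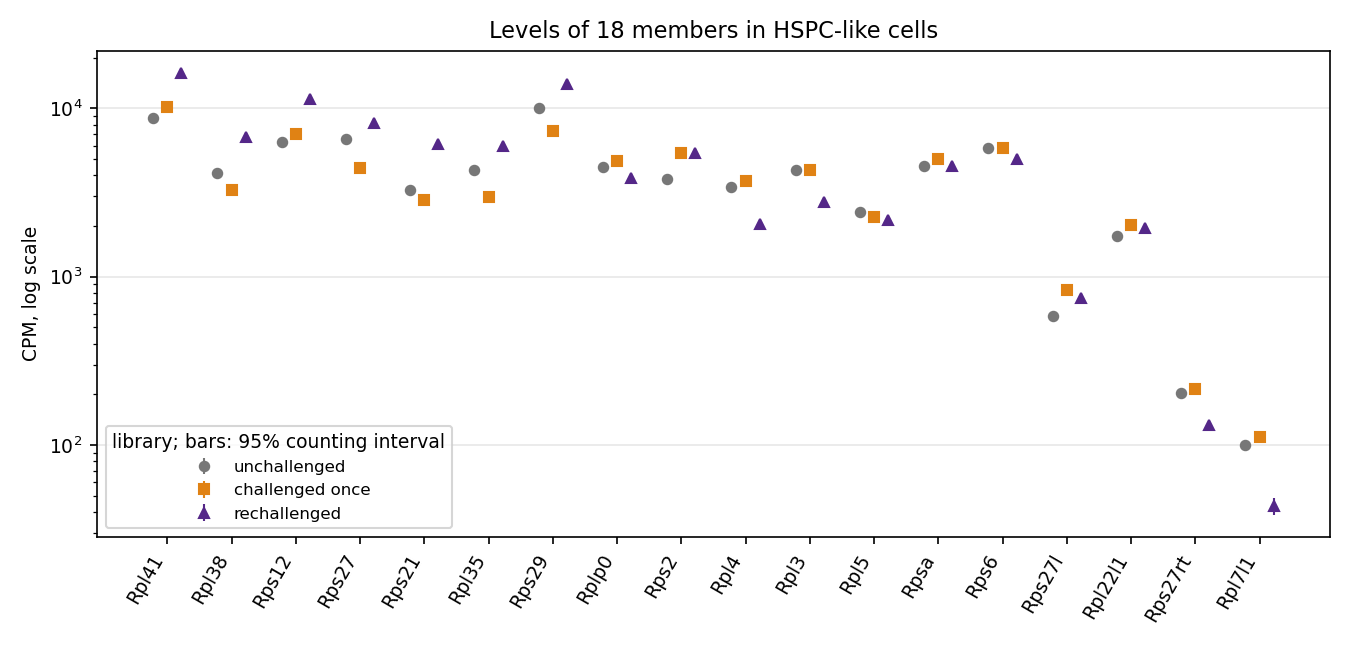
Level of 18 members in HSPC-like cells (y axis, CPM on a log scale) in the 3 libraries, with 95% counting intervals mostly smaller than the symbols. The rechallenged points are highest for Rpl41, Rpl38, Rps12, Rps27, Rps21, Rpl35 and Rps29 and lie well below the others for Rpl4, Rpl3, Rps27rt and Rpl7l1. For Rplp0 and Rps6 they lie slightly below.

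In neutrophil progenitor-like cells the leading members overlapped with those of HSPC-like cells in part. For rechallenged over unchallenged the 3 highest were Rpl38, Rpl41 and Rps21, against Rpl41, Rps12 and Rps21 in HSPC-like cells. For challenged once over unchallenged 0 members were higher and 2 lower, Rpl35 and Rps29, where 2.15% of all measured genes were higher and 1.32% lower. Rpl35 had 4062, 2314 and 5514 CPM and Rps29 had 11487, 7299 and 13220 CPM, so both were lowest after 1 challenge. Over unchallenged, 4 were higher and 4 lower in the rechallenged library (1.81% and 4.12% of all genes), led by Rps21 at 2736 against 4993 CPM, Rpl38 at 3627 against 6516 CPM and Rpl41 at 10447 against 18405 CPM. Rpl4, at 3002 against 1782 CPM, and Rpl7l1, at 109 against 57.0 CPM, were among the 4 lower members, whose part of the members was near that of all genes. Over challenged once, 11 were higher and 3 lower (1.29% and 8.16%), with Rpl35 the highest at 2.38-fold and Rpl37a, at 5795 against 10947 CPM, also among the 3 highest.

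The 3 clusters that make up the neutrophil progenitor-like cells each gave the same order of libraries. Their member shares were 38.1%, 34.0% and 40.7%, then 32.1%, 30.2% and 36.1%, then 39.6%, 35.8% and 42.4% in the unchallenged, challenged once and rechallenged libraries. In each cluster the challenged once library was lowest and the rechallenged library highest. The cluster with the lowest shares also had the highest granule list share, 7.55%, 7.74% and 6.66%.

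Immature neutrophil-like cells differed most between libraries. Of 83 measured members, 9 were higher and 0 lower for challenged once over unchallenged, where 1.34% of all genes were higher and 0.237% lower. Between rechallenged and unchallenged 70 were higher and 0 lower (3.04% and 3.14%), and for rechallenged over challenged once 41 were higher and 2 lower (1.82% and 6.56%). Rps2 had 769, 1890 and 2358 CPM there, Rpl41 had 2392, 3747 and 8517 CPM, Rps19 had 1752, 2707 and 3475 CPM, and Rpl4 had 642, 806 and 666 CPM. The first 3 were lowest in the unchallenged and highest in the rechallenged library, and Rpl4 was highest in the challenged once library.

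The group holds 3 clusters, and their mix differed between libraries. The cluster with the highest member share, which had a granule share of 35.5%, 30.5% and 31.6%, held 371 of 3558 unchallenged, 195 of 1084 challenged once and 752 of 1442 rechallenged cells. Its member share was 16.9%, 18.9% and 23.2%. The other 2 clusters had 8.10%, 9.93% and 13.9%, and 6.51%, 6.57% and 11.0%. Within each cluster the rechallenged library was highest. In mature neutrophil-like cells the shares were 6.11%, 5.63% and 8.32%; 1 of the 2 clusters held 3 unchallenged cells against 279 and 435, and the other had 6.10%, 5.30% and 8.87%. Of 81 or 82 measured members in these cells, 1 was higher and 0 lower for challenged once over unchallenged (12.3% and 5.39% of all genes), 20 higher and 2 lower for rechallenged over unchallenged (10.3% and 12.1%), and 25 higher and 2 lower for rechallenged over challenged once (4.09% and 11.8%).

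Erythroid-like cells, which depend on high ribosome output, had 0 of 83 members higher or lower for challenged once over unchallenged (0.302% and 0.777% of all genes). In the rechallenged library 6 members were higher and 6 lower over unchallenged (1.19% and 5.91%), and 8 higher and 9 lower over challenged once (2.28% and 4.65%). Over unchallenged the part of the members that was lower was near that of all genes. The higher members over unchallenged were 3 of 46 large and 3 of 31 small subunit members, and the 5 lower structural members all belonged to the large subunit. The depth of these cells was 31277, 26245 and 16829 UMIs in the median cell, lowest in the rechallenged library, and its part was not tested.

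Across all kept cells the mix of cell groups enters the levels. Between challenged once and unchallenged 4 of 85 measured members were higher and 0 lower, where 1.99% of all genes were higher and 1.52% lower. Between rechallenged and unchallenged 24 were higher and 1 lower (2.3% and 4.06%), and for rechallenged over challenged once 8 were higher and 6 lower (1.44% and 8.43%). Leaving the 20 most abundant other genes out of the total took the log2 ratio of the share for challenged once over unchallenged from 0.37 to 0.14.

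Members were then compared over the 9 named groups with at least 1000000 UMIs in every library, each relative to the whole member pool of its group. For rechallenged over unchallenged, 17 of 81 members measured in all 9 lay above the pool in each and 32 lay below it in each. The first were Rpl22, Rpl30, Rpl35, Rpl36a, Rpl37a, Rpl38, Rpl39, Rpl41, Rplp1, Rplp2, Rps12, Rps16, Rps20, Rps21, Rps27a, Rps28 and Rps29, named here for this pattern after their values were seen. Rps21, Rpl38 and Rpl41 were at least 1.5-fold higher in 9 of 9 groups, and Rpl4 at least 1.5-fold lower in 8 of 9. How many of all measured genes recurred over groups in this way was not counted, so the recurrence cannot be called particular to these members. For challenged once over unchallenged 11 lay above and 9 below the pool in each group, the latter including Rpl35, Rpl37a, Rpl38, Rps27 and Rps29. The groups share their libraries and are not replicates.

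The pool was less even in the rechallenged library. In HSPC-like cells the 5 most abundant structural members held 11.2%, 11.4% and 13.7% of member UMIs, and the highest single member held 2.45%, 2.51% and 3.37%. The ratio of large to small subunit UMIs was 1.20, 1.23 and 1.17, close to each other. In HSPC-like cells 4 of 31 small subunit and 6 of 46 large subunit structural members were higher, and 0 and 2 lower, for rechallenged over unchallenged. Of all measured genes in that comparison 1.78% were higher and 9.8% lower.

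Paralogs were read beside their partners. Rps27rt, a retrogene, took 3.15%, 5.34% and 1.74% of the summed UMIs of Rps27rt and Rps27 in neutrophil progenitor-like cells. In all kept cells it took 3.04%, 4.91% and 1.65% and in B lineage-like cells 3.10%, 5.22% and 1.43%. In all 12 named groups the value was highest in the challenged once and lowest in the rechallenged library, with intervals that overlap in macrophage-like cells. The annotated transcripts, 345 bases for Rps27 and 374 for Rps27rt, have a run of 341 bases in common, so reads of the 2 genes can hardly be told apart. In HSPC-like cells Rps27rt had 204, 213 and 130 CPM.

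Rps27l, a paralog whose gene is a known p53 target, differed between cell groups in its part of the pair with Rps27. In every named group that part was highest in the challenged once library, with intervals that overlap unchallenged in macrophage-like cells. It took 8.09%, 15.9% and 8.34% of its pair with Rps27 in HSPC-like cells. The values were 12.7%, 23.8% and 14.6% in neutrophil progenitor-like and 4.78%, 5.50% and 2.71% in B lineage-like cells. Its own level in HSPC-like cells was 582, 832 and 748 CPM, a fold of 1.43 (1.38 to 1.49) for challenged once over unchallenged, while Rps27 was at its lowest there. The shift of the pair therefore combined a higher Rps27l and a lower Rps27.

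**Figure D5:**
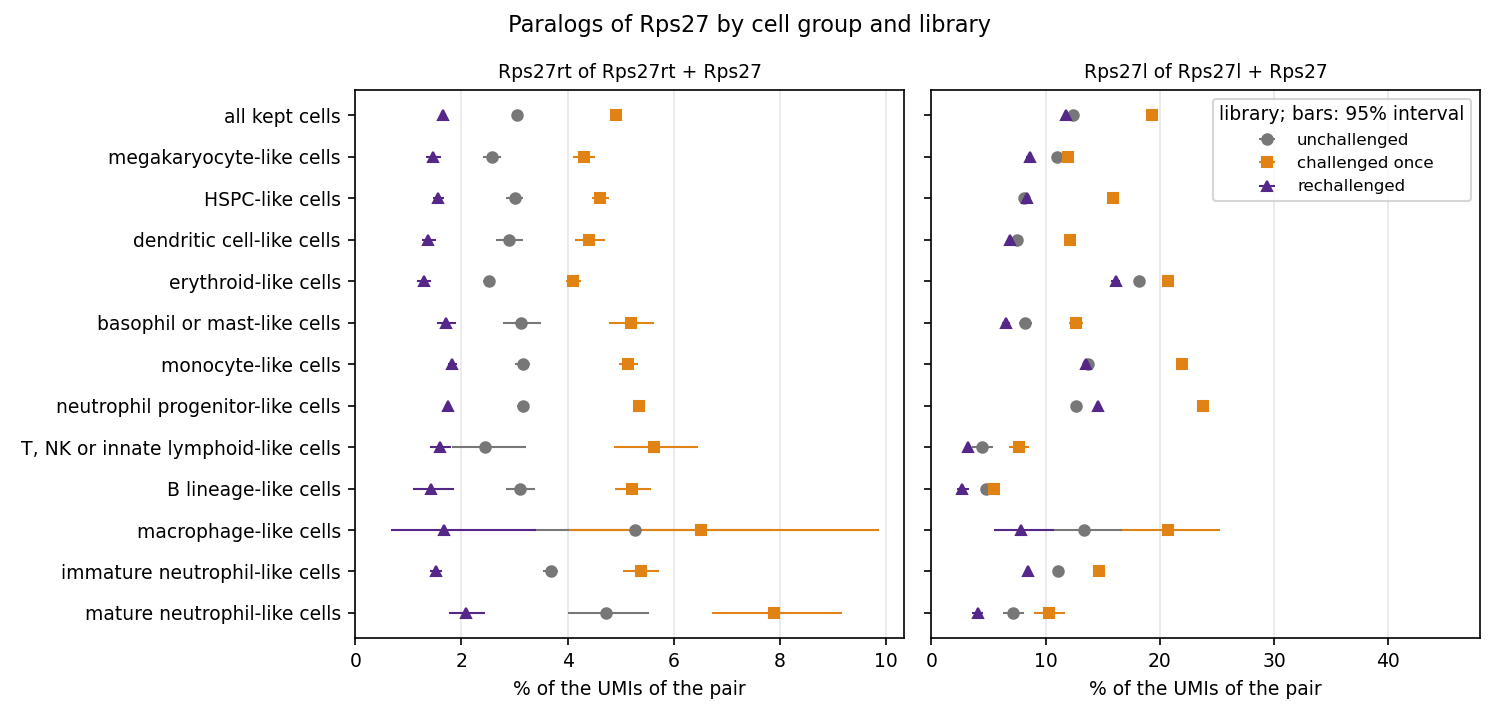
Percent of the UMIs of the pair (x axis) held by Rps27rt (left) and Rps27l (right) beside Rps27, by cell group (y axis) and library, with 95% Clopper-Pearson intervals. On the left the 3 libraries separate in the same order in every group. On the right the groups spread widely, from 2.71% to 23.8% in those named in the text, with challenged once highest in each.

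Rpl22l1, the paralog of Rpl22 with its own part in blood development, took 42.5%, 46.4% and 36.8% of the pair in HSPC-like cells and 49.8%, 50.3% and 49.1% in neutrophil progenitor-like cells. In HSPC-like cells its level was 1756, 2040 and 1954 CPM and that of Rpl22 was 2379, 2356 and 3358 CPM, so the lower share in the rechallenged library went with a higher Rpl22. Rpl36al took 15.3%, 16.3% and 10.2% of its pair with the X-linked Rpl36a in HSPC-like cells. Its own level was 563, 569 and 568 CPM and Rpl36a had 3115, 2931 and 4996 CPM. Rpl7l1, a paralog of Rpl7 that takes part in large subunit assembly, had 99.2, 112 and 43.3 CPM, the lowest ratio of all measured members in HSPC-like cells for rechallenged over unchallenged (log2 -1.03). Rpl7 had 3560, 3756 and 3366 CPM.

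Tissue-restricted paralogs were rare. Rpl10l, known from testis, had 2 UMIs in all kept cells and Rpl39l had 199. Rpl3l, known from heart and skeletal muscle, had 650. Its highest shares of the pair with Rpl3 were in mature neutrophil-like cells, at 1.98%, 8.23% and 17.9%, highest in the rechallenged library. They came from 11, 34 and 122 Rpl3l UMIs beside 544, 379 and 559 of Rpl3. The cell mix of this group differed, as 1 of its clusters held 3, 279 and 435 cells. In B lineage-like cells Rpl3l took 1.59%, 1.81% and 3.70% of the pair with Rpl3, from 59, 80 and 10 Rpl3l UMIs, and in HSPC-like cells 0.019%, 0.0033% and 0.010%. Rps19bp1 had 69.7, 76.9 and 49.4 CPM in HSPC-like cells.

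Many members have near-identical copies elsewhere in the genome. In the GENCODE M21 transcripts, 52 of 86 members had over 50% of the 31-base words of their last 300 bases in other genes, and 17 had none. The measured members with at most 50% were 31 in HSPC-like cells. For rechallenged over unchallenged 2 of these were higher and 2 lower, with a median log2 ratio of 0.17 and a rank correlation with coding length of -0.82. The 52 others had 8 higher and 2 lower, 0.15 and -0.60. Of all measured genes 1.78% were higher and 9.8% lower. The relation to length was seen in both sets. Sharing was measured on 1 annotated transcript per gene, up to 5130 bases long (Rps15a), whose end may not be the one read. Whether reads of the first set were unique to their genes was not tested.

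Ribosome components can also carry symbols outside the rule. Fau, which makes a small subunit protein as part of a fusion, had 4605, 4312 and 5898 CPM in HSPC-like cells and was highest in the rechallenged library. Rack1, a scaffold protein on the small subunit, had 2123, 2244 and 2086 CPM, close to each other.

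For rechallenged over unchallenged, lists of genes that serve ribosomes had lower medians than the members. Of 35 translation factor genes in HSPC-like cells, 1 was higher and 11 lower, where 1.78% of all measured genes were higher and 9.8% lower, with a median log2 ratio of -0.26, and 0 in either direction for challenged once over unchallenged. Of the genes named next after their values were seen, Eef1a1, which brings transfer RNAs to the ribosome, had 8108, 8066 and 5353 CPM, and Eef2, which moves the ribosome along, had 1586, 1572 and 914 CPM. Eif5a had 920, 1319 and 498 CPM and was highest after 1 challenge and lowest after 2. Of 31 ribosome biogenesis genes, 0 were higher and 6 lower (median -0.31), of 7 chaperones and other factors at the ribosome 0 were higher and 0 lower (median -0.33), and of 77 measured mitochondrial ribosomal protein genes 0 were higher and 4 lower (median -0.16). The median of all measured genes in that comparison was -0.15, so the mitochondrial list lay near it, and its share of lower genes was under that of all genes.

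These lists leaned upward for challenged once over unchallenged in neutrophil progenitor-like cells. Translation factors had 5 higher and 0 lower of 35, biogenesis genes 5 and 0 of 31, and mitochondrial ribosomal proteins 9 and 0 of 77, with medians of 0.29, 0.29 and 0.42, against 0.065 for all genes, of which 2.15% were higher and 1.32% lower. The cytoplasmic members had a median of -0.036. For rechallenged over challenged once in the same cells the lists had 0 higher each, and 11, 19 and 32 lower, where 1.29% of all genes were higher and 8.16% lower, with medians of -0.44, -0.71 and -0.52, while the members had a median of 0.11.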

How the data were processed

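Values are the deposited counts: whole UMI counts per gene and barcode, 1 table per library, made by the authors with Cell Ranger 3.0.0 on mm10, per the submitters' processing notes. The members and lists were chosen with earlier results of these data known. The cell filter asked for 500 UMIs, 300 genes and no more than 10% mitochondrial UMIs, and the 427, 294 and 256 doublets called by Scrublet in scanpy 1.11.5 were left out. Clustering (2000 variable genes, 30 components, 15 neighbours, leidenalg 0.10.2, resolution 1) left out ribosomal protein, mitochondrial, interferon, inflammatory, immediate early, cell cycle and sex-linked genes. Clusters were named from 14 marker lists and rebuilt names may differ from the study's; 4 stayed unnamed. UMIs were summed per library and group. Shares carry exact Clopper-Pearson and levels exact Poisson 95% intervals. Ratios use CPM plus 10 and genes with at least 100 UMIs over the 2 libraries. Named members are the 3 highest and 3 lowest ratios in each of 3 comparisons and 3 populations (all kept, HSPC-like and neutrophil progenitor-like cells), the 5 with most UMIs, paralogs and their partners, and 11 set ones. Coding lengths are from GENCODE M21 on GRCm38. The annotation the authors counted against is not given in the sources used here. Alternatives were other cell filters, clusterings, totals, member sets and scalings. The calling step was tested on simulated counts of HSPC-like cells, for challenged once over unchallenged, rechallenged over unchallenged and rechallenged over challenged once. In that order it called 75, 89 and 72 of 100 doubled genes, 59 of 93, 64 of 91 and 46 of 96 halved genes, and 0 unchanged genes. The added 10 CPM draws ratios of low genes toward 0. Most members lay far above 10 CPM, so calls over all genes and over members are not fully alike. One gene of a companion list is not reported here.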

Additional observations from a re-analysis of the deposited data

Results flagged for a closer look

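For challenged once over unchallenged the share of ribosomal protein UMIs was lower in some cell groups and higher in others. The log2 ratio was -0.024 in HSPC-like, -0.076 in neutrophil progenitor-like, -0.12 in mature neutrophil-like and -0.022 in monocyte-like cells. It was 0.39 in immature neutrophil-like, 0.22 in macrophage-like, 0.13 in T, NK or innate lymphoid-like, 0.12 in erythroid-like, 0.085 in megakaryocyte-like, 0.074 in B lineage-like, 0.063 in basophil or mast-like and 0.027 in dendritic cell-like cells. In macrophage-like cells the median cell went the other way, at 23.7% in the challenged once against 24.1% in the unchallenged library. The granule list took 6.27% and 23.7% of the UMIs of that group in the same order. With 1 library per group the difference between cell groups was not tested. The rows whose symbols contain -ps, which are not members, held 0.044% of UMIs in the challenged once and 0.028% in the rechallenged library, against 0.022% in the unchallenged library.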

How the results depend on the processing

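No paired analysis was possible because each group has 1 library. Of 108 alternative values of the share's log2 ratio in all kept, HSPC-like and neutrophil progenitor-like cells, 100 had the sign of the reported value, and of 384 in the other named groups 368. Of 714 values for named members at 1.5-fold or more, 714 had the same sign and 691 were still at 1.5-fold. The member splits by length were added after seeing the data; the cause of each shift below was not tested. Depth sets only the counting error; with 1 library the spread between animals is unknown.

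Values follow the order challenged once over unchallenged, rechallenged over unchallenged and rechallenged over challenged once, with those inside the counting interval left out. At 1000 UMIs and 500 genes per cell they were 0.38, 0.50 and 0.12 in all kept cells, 0.017, 0.26 and 0.24 in HSPC-like, and -0.081 and 0.15 in neutrophil progenitor-like cells, with -0.00121 for the first in dendritic cell-like cells. Without a filter they were 0.38 and 0.50, then -0.013 and 0.23, then -0.073 and 0.16, with -0.049 for the last in erythroid-like cells. With Scrublet calls kept they were 0.38, 0.49 and 0.11, then -0.00307 and 0.24, then -0.11 and 0.11. Without mitochondrial genes in the total they were 0.38, 0.52 and 0.14, then 0.24 and 0.27 for the last pair, then -0.083, 0.17 and 0.25. Without the 20 most abundant other genes they were 0.14, 0.34 and 0.19, then -0.034 and 0.26, then -0.12, 0.13 and 0.26. Without paralogs they were 0.37 and 0.12, then 0.25, then -0.079 and 0.23. With -ps rows the last in all kept cells was 0.12. As a mean over cells they were 0.43, 0.60 and 0.18, then -0.00875, 0.23 and 0.24, then -0.063 and 0.22. At Leiden resolution 2 they were 0.013, 0.25 and 0.24 in HSPC-like cells, then -0.021, 0.19 and 0.21. On all variable genes they were -0.013, 0.23 and 0.24 in HSPC-like cells, then -0.11, 0.10 and 0.22, with -0.61 for the second in mature neutrophil-like cells. Members up to 450 coding bases gave 0.33, 0.68 and 0.35, then -0.075, 0.41 and 0.48, then -0.12, 0.31 and 0.43, with -0.029 for the first in dendritic cell-like cells. Members over 450 gave 0.42, 0.26 and -0.16, then 0.029, -0.00912 and -0.038, then -0.027, -0.043 and -0.016. In the other groups they turned the sign to 0.050, -0.019 and -0.069 in monocyte-like cells, to -0.036 and -0.12 in dendritic cell-like, -0.14 and -0.30 in erythroid-like and -0.060 and -0.20 in megakaryocyte-like cells for rechallenged over unchallenged and over challenged once, and for the latter to -0.10 in B lineage-like, -0.089 in T, NK or innate lymphoid-like and -0.11 in basophil or mast-like cells.

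Of 162 values for counts of members at 1.5-fold, 150 were within 1.5 times the reported count. For challenged once over unchallenged, in place of 0 lower in HSPC-like cells there was 1 with Scrublet calls kept, on all variable genes and after thinning to 2000 UMIs per cell. In place of 0 higher in neutrophil progenitor-like cells there was 1 at resolution 2, and in place of 4 higher in all kept cells there were 2 with ratios centred on the median gene and 14 after thinning. For rechallenged over unchallenged, thinning gave 38 higher in all kept cells in place of 24. Centring gave 17 higher and 1 lower in HSPC-like cells in place of 10 and 4, and 2 lower in neutrophil progenitor-like cells in place of 4, as did resolution 2. For rechallenged over challenged once, centring gave 2 lower in HSPC-like cells in place of 5. The shares of all genes given earlier are for ratios without centring.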
